A study of Saccharomyces cerevisiae with 8 samples.

Results

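The genes described here are 31 genes of sulfate assimilation and of methionine and cysteine metabolism in budding yeast, taken by name from a list and not by their values, out of 6002 nuclear protein-coding genes. MET17, which joins sulfide to O-acetylhomoserine, is no member because it is deleted in the strain. The assay was CAGE (cap analysis of gene expression), which counts the 5′ ends of capped transcripts, and there were 8 libraries. The host was BY4741, a MATa laboratory strain that lacks functional HIS3, LEU2, MET17 and URA3, and it carried a synthetic human HPRT1 locus, either reversed (synHPRT1R) or in its own order (synHPRT1). The groups, of 2 libraries each, were synHPRT1R on a yeast artificial chromosome (YAC) and synHPRT1 on a YAC, both grown in SC-Leu, then synHPRT1R integrated on chromosome XI and synHPRT1 integrated there, both grown in YPD. Context (YAC or integrated) and medium therefore cannot be told apart, and the labels do not state how much methionine or cysteine the media held. All cultures grew at 30 °C, were diluted to an OD of 0.1 and were collected after 6 h at an OD near 0.6. Nothing in the labels says whether replicates were separate cultures or whether a strain was 1 clone, so the spread between libraries may be technical. RNA came from whole cultures, in which more cells with a transcript and more transcript per cell cannot be told apart.

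Yeast takes up sulfate, activates it with ATP and reduces it to sulfide, which is joined to a carbon chain derived from aspartate to give homocysteine. Homocysteine is methylated to methionine or, by transsulfuration, exchanged with cysteine. Methionine feeds S-adenosylmethionine, the methyl donor of the cell, whose spent form is returned to homocysteine. Transcription of most of these genes depends on the activator Met4, which is brought to promoters by Cbf1 with Met28 and by Met31 or Met32, and is held in check by the ubiquitin ligase subunit Met30 when sulfur amino acids are plentiful. A cell without MET17 lacks the main route from sulfide to homocysteine and generally needs a supply of organic sulfur.

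Start peaks are deposited CAGE peaks on a gene's own strand that overlap its start window, 300 bp before and 100 bp after the annotated 5′ end, which is the start of the coding sequence for 100% of the genes. The libraries held 2995 to 3367 nuclear peaks, and 39.9% to 44.4% of all genes had a start peak. MET17 and URA3 had one in 0 of 8 libraries, LEU2 in 4 YAC and 0 integrated libraries and HIS3 in 4 and 2. The mating type a genes MFA1, MFA2 and STE6 had one in all 8 libraries, STE2 in 2 and BAR1 in 0, and of 4 alpha-specific genes only MF(ALPHA)1 had any, in 1 library. Peak strength is given as relative summit height, the number of tags at the summit, solved from the deposited fold and p of the peak, divided by the genome-wide background of the same strand's list. That background was 41 to 52.7 tags on the forward strand and 67.1 to 94.8 on the reverse strand, so heights are comparable between libraries for 1 gene but not between genes on different strands. The lowest relative summit height in a list was 1.32 to 1.49, so a start below about that level, or beside a raised local background, would not be listed. HIS3 had heights of 5.07 to 20.0 in YAC libraries, against 11.1 in synHPRT1R integrated replicate 2 and 239.7 (11978 summit tags) in synHPRT1 integrated replicate 1, which stood apart in this. MET6, SAM1, SAH1 and MET28 had heights that did not overlap between contexts. Leaving a library out cannot create an overlap, so it is no test of that library's part in this.

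Of the 31 genes, 5 had a start peak in all 8 libraries, namely CYS3, CYS4, SAM1, SAH1 and MET28, which is 16.1% of the list against 20.6% of all genes. A further 19 had one in 1 to 7 libraries. No start peak was listed in any library for SUL1, SUL2, MET3, MET22, MET2, MHT1 and MET32, 22.6% of the list against 33.8% of all genes. Per library, 16 and 19 members had a start peak in synHPRT1R YAC and 18 and 15 in synHPRT1 YAC, against 15 and 15 in synHPRT1R integrated and 11 and 15 in synHPRT1 integrated. The YAC libraries averaged 17 ± 1.83 members and the integrated ones 14 ± 2 (SD, n = 4 each), and the ranges met at 15. Over all genes the order was the other way, with a YAC mean of 2426 ± 25 genes and an integrated mean of 2498.5 ± 128 genes (SD, n = 4 each), a difference within the spread.

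**Figure D1:**
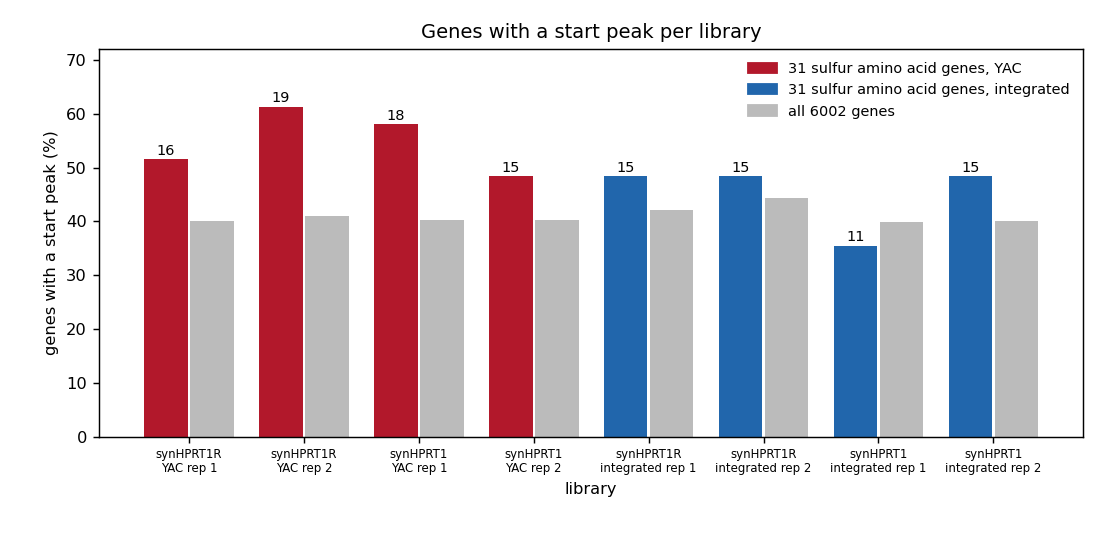
Share of genes with a start peak (%, vertical axis) in each library, for the 31 sulfur amino acid genes (red in YAC, blue in integrated libraries, with the number of genes above the bar) and for all 6002 genes (grey). The sulfur amino acid genes stand above all genes in 7 libraries and below them in synHPRT1 integrated replicate 1, with 11 of 31.

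The comparison of YAC with integrated libraries asked which of these starts differ between the contexts. By presence alone, no member separated the contexts: 0 of 24 members with any start peak had one in 4 of 4 YAC and 0 of 4 integrated libraries, where 0.151% of the 3973 genes with a start peak did, and 0 had the reverse pattern, which 0.126% did. After Benjamini-Hochberg adjustment over these 3973 genes, 0 passed Fisher's exact test, and 11 genes (0.277%), none of them a member, had an unadjusted p under 0.05. The smallest p that 4 against 4 libraries allow is 0.0286 (exact, two-sided), and the lowest of a member was 0.429, with an adjusted p of 1. The pattern within the list was uneven. Of the 24 members, 12 had a start peak in more YAC than integrated libraries and 5 in fewer, that is 50.0% and 20.8%, beside 24.7% and 29.8% of all genes tested.

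A start peak in all 4 YAC libraries but in only 1 to 3 integrated libraries was found at MET5, MET6, STR3, MUP1, MUP3, MET30 and MET31, 7 of 24 members or 29.2%, while 6.77% of all genes tested had this pattern. Its mirror image, 4 integrated and 1 to 3 YAC libraries, was found at 0 members and at 7.22% of genes. With any 1 integrated library left out, 6 members met this rule each time, beside 4.83% to 6.03% of genes. Its mirror image was then met by 9.29% to 11.2% of genes and by 0 members, or by 1 without synHPRT1R integrated replicate 2. MET13 and SAM2 were listed in 3 YAC and 1 integrated library, 8.33% of members against 3.4% of genes, and 0 members had one in at most 1 YAC and at least 3 integrated libraries, as 3.8% of genes did.

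**Figure D2:**
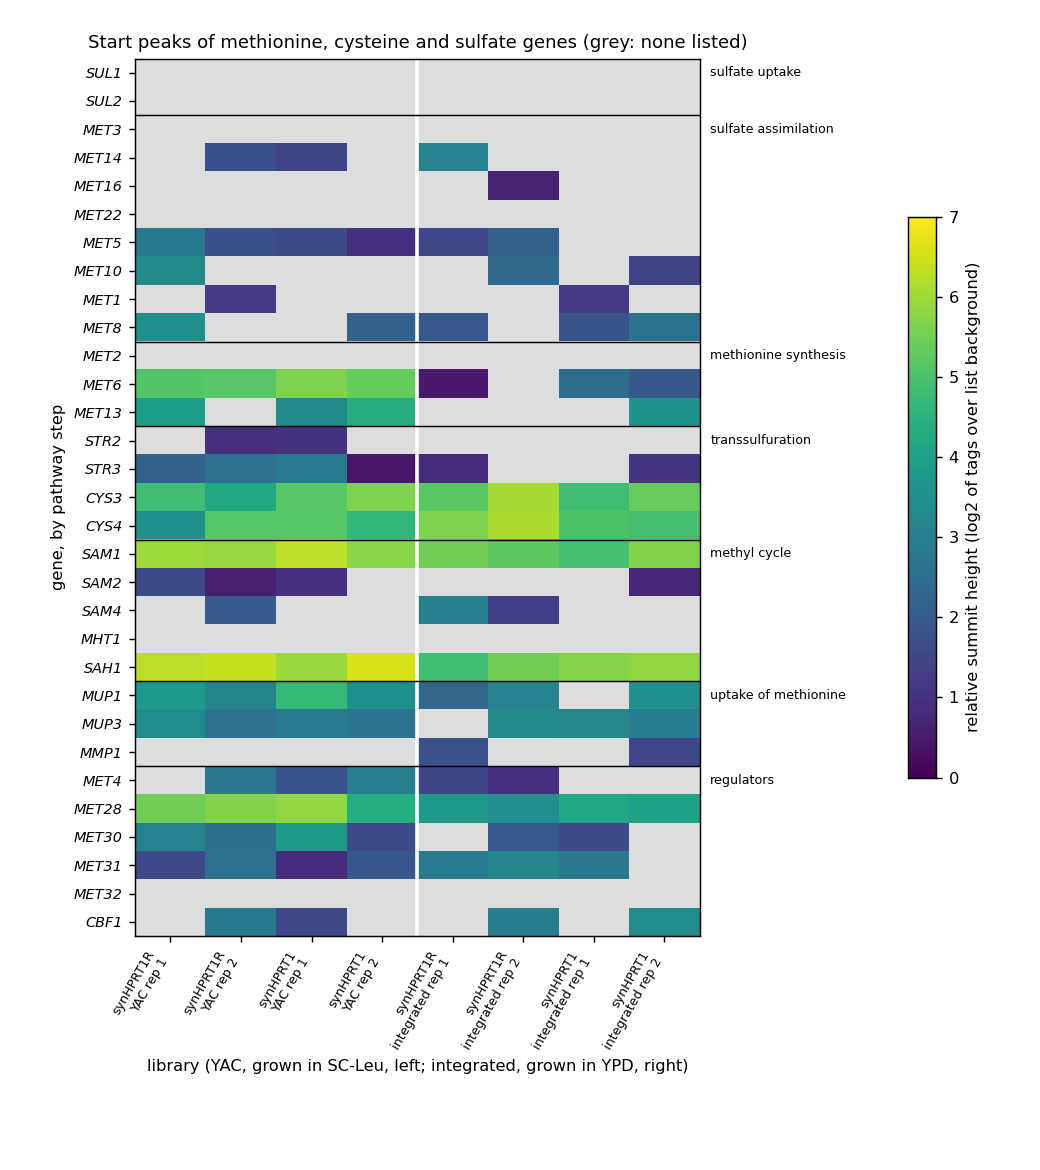
Relative summit height (colour, log2 of summit tags over the background of the list) of the start peak of each of the 31 genes (rows, by pathway step) in each library (columns, YAC left of the white line and integrated right of it), grey where no start peak was listed. MET6 and MET28 are brighter in the 4 YAC columns, CYS3, CYS4, SAM1 and SAH1 are bright throughout, and 7 rows are grey across.

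Heights separated the contexts where presence did not. MET6, SAM1, SAH1 and MET28 stood higher in every YAC library than in any integrated one when a missing peak is counted as lower. They are 4 of the 12 members with a start peak in all 4 YAC libraries, a rule that 5.75% of the 1514 such genes met. In the opposite direction stood 0 of the 5 members with a start peak in all 4 integrated libraries, and 6.86% of the 1531 such genes. The 12 entered through the YAC libraries and the 5 through the integrated ones, so these counts rest on unlike sets. MET6 and MET31 are among the 12 but not the 5. The listed integrated heights of MET31, 6.82 to 9.05, all stood above its YAC heights, 1.84 to 6.17. A missing integrated peak kept MET31 out of the opposite count, while a missing integrated peak did not keep MET6 out of the first. Among the 1239 genes with a start peak in all 8 libraries, 4.52% did not overlap and were higher in YAC, and 6.38% were lower. Of the 5 members among them, 3 were higher, namely SAM1, SAH1 and MET28, and 0 were lower. The median log2 ratio of YAC over integrated of the 1239 genes was -0.10. The genes that did not overlap are those at the smallest possible p of the exact permutation test, 0.0286, and 0 genes passed after Benjamini-Hochberg adjustment over the 1239.

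In methionine synthesis MET6 alone separated the contexts by height, with the widest separation of the list. MET6 (YER091C, minus strand, chrV:339864-342167) encodes the cobalamin-independent methionine synthase, which methylates homocysteine. Its relative summit height was 35.1 and 36 in synHPRT1R YAC and 50.4 and 40.4 in synHPRT1 YAC libraries, against 1.39 in synHPRT1R integrated replicate 1, no peak in replicate 2, and 5.55 and 3.79 in synHPRT1 integrated libraries. All 4 YAC values stood above all integrated ones, and the lowest YAC value was 6.31 times the highest integrated one. Behind these heights lay 2412 to 4348 summit tags in YAC and 111 to 440 in the 3 integrated libraries with a peak. Within its list the MET6 peak ranked at percentile 89.3 to 92.5 in YAC and at 2.17, 52.3 and 39.9 in those integrated libraries. The background solved at the peak stayed at that of the genome in all but 1 of them, 88.3 tags where the list had 86.2. By presence, with 4 of 4 against 3 of 4 libraries, MET6 had a Fisher's exact p of 1.

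MET13 encodes methylenetetrahydrofolate reductase, which supplies the methyl group that MET6 transfers. It had heights of 15.1 in synHPRT1R YAC replicate 1, 10.1 and 20.7 in synHPRT1 YAC libraries and 12.4 in synHPRT1 integrated replicate 2, and no peak in the other 4 libraries. The single integrated value lay among the YAC values. Local background at this peak was 254, 234, 55.3 and 94.1 tags where it was listed, above that of its lists, and the part of this in the missing peaks was not tested. MET2, the homoserine acetyltransferase gene, had no start peak in any library.

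In the methyl cycle, SAH1 and SAM1 were listed in all 8 libraries. SAH1 (YER043C, minus strand, chrV:235770-237119) encodes S-adenosylhomocysteine hydrolase, which returns the spent methyl donor to homocysteine. Its height was 78.7 and 84.0 in synHPRT1R YAC and 62.1 and 95.6 in synHPRT1 YAC libraries, against 28.7 and 44.5 in synHPRT1R integrated and 52.4 and 56.8 in synHPRT1 integrated libraries. The groups did not overlap, although the lowest YAC value was only 1.09 times the highest integrated one. The YAC mean was 80.1 ± 13.9 and the integrated mean 45.6 ± 12.4 (SD, n = 4 each), which is a log2 ratio of 0.84 ± 0.26 (SE; exact permutation p = 0.0286, the smallest possible; adjusted p = 0.262).

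SAM1 (YLR180W, plus strand, chrXII:515262-516410) encodes one of the S-adenosylmethionine synthetases. It had heights of 62.8 and 59.1 in synHPRT1R YAC and 79.0 and 54.1 in synHPRT1 YAC libraries, against 44.4 and 37.5 in synHPRT1R integrated and 30.5 and 51.0 in synHPRT1 integrated libraries. Again the groups did not overlap, by a factor of 1.06 between the nearest values. The log2 ratio was 0.65 ± 0.20 (SE; exact permutation p = 0.0286, adjusted p = 0.262). On the deposited fold, which is lowered by tags nearby, the log2 ratio of SAM1 was 0.17 and its groups overlapped. That of SAH1 was 0.27, but the fold reaches no higher than 50.0 in any library and all 4 YAC values of SAH1, 48.7 to 49.1, lay near this ceiling, so the fold compresses its ratio. The background solved at the SAM1 peak was 101 to 140 tags in YAC and 78.7 to 112 in integrated libraries.

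The other synthetase gene, SAM2, was weak. Its height was 3.02 and 1.54 in synHPRT1R YAC libraries, 1.94 in synHPRT1 YAC replicate 1 and 1.71 in synHPRT1 integrated replicate 2, with no peak in the rest. None of the 31-base words in the start windows of SAM1 and SAM2 occurred elsewhere in the nuclear genome, so the peaks of these related genes can be told apart at that word length. SAM4 and MHT1 encode homocysteine methyltransferases. SAM4 had heights of 4.05 in synHPRT1R YAC replicate 2 and of 8.33 and 2.47 in synHPRT1R integrated libraries, and MHT1 had no start peak.

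**Figure D3:**
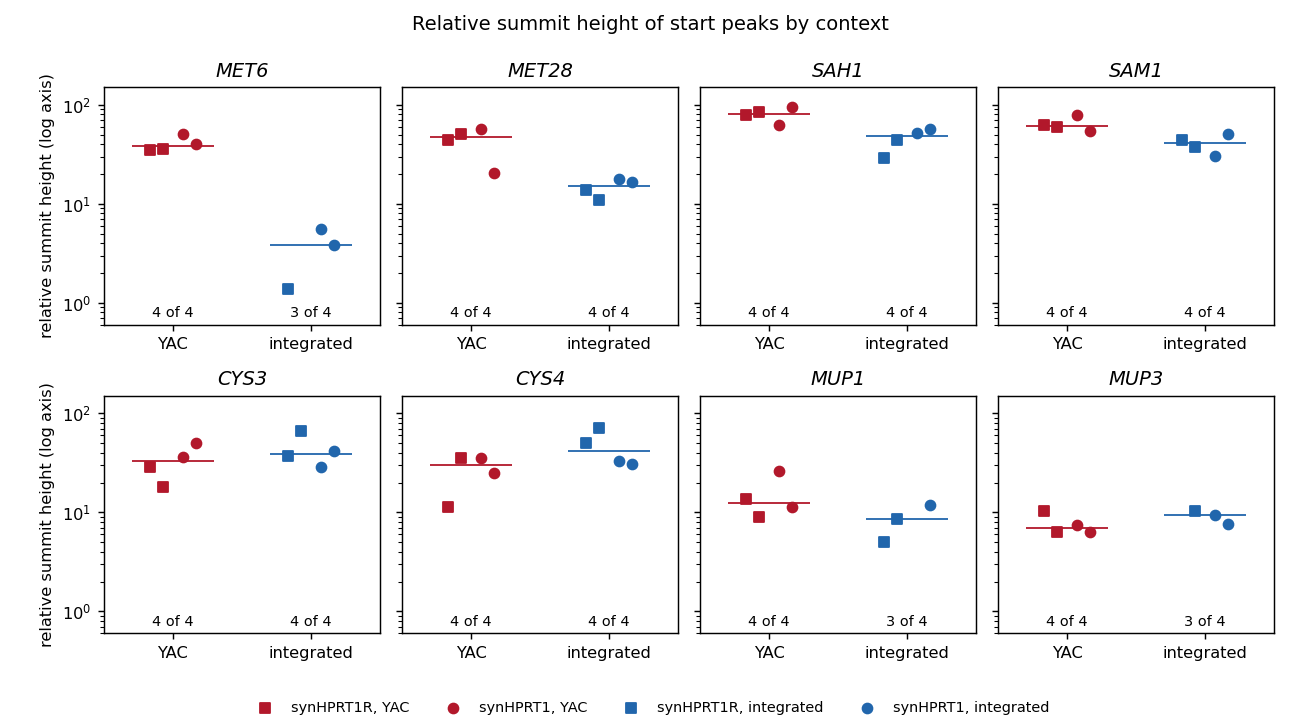
Relative summit height (log axis) of 8 members by context, with YAC left of integrated; squares are synHPRT1R, circles synHPRT1, horizontal lines the median of the libraries with a peak, and the count of libraries with a peak stands at the foot. MET6, MET28, SAH1 and SAM1 do not overlap between contexts, while CYS3, CYS4, MUP1 and MUP3 do.

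Transsulfuration was represented by strong peaks at the genes that lead to cysteine. CYS4 (YGR155W, plus strand, chrVII:798543-800066), the cystathionine beta-synthase gene, had heights of 11.4 and 35.6 in synHPRT1R YAC and 35.6 and 24.8 in synHPRT1 YAC libraries, against 49.8 and 70.8 in synHPRT1R integrated and 32.8 and 30.7 in synHPRT1 integrated libraries. The ranges overlapped, and the log2 ratio was -0.83 ± 0.48 (SE; exact permutation p = 0.171, adjusted p = 0.531). CYS3 (YAL012W, plus strand, chrI:130799-131983), the cystathionine gamma-lyase gene, ranged from 18.1 to 50.3 in YAC and from 28.9 to 66.1 in integrated libraries, with a log2 ratio of -0.40 ± 0.40 (SE; exact permutation p = 0.343, adjusted p = 0.727).

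The genes of the opposite direction, from cysteine to homocysteine, ranked lower within their lists, STR2 at percentiles 14.7 and 15.2 and STR3 at 0.712 to 61.0, where CYS4 had 66.7 to 93.3 and CYS3 79.7 to 92.9. STR3, the cystathionine beta-lyase gene, had heights of 4.53 and 6.20 in synHPRT1R YAC and 7.26 and 1.37 in synHPRT1 YAC libraries, against 1.85 in synHPRT1R integrated replicate 1 and 2.12 in synHPRT1 integrated replicate 2. The YAC value of 1.37, in synHPRT1 replicate 2, lay below both integrated values. STR2, the cystathionine gamma-synthase gene, had a start peak in 2 YAC libraries, with heights of 1.94 and 2.02, and in 0 integrated libraries.

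Among the regulators, MET28 alone was listed in all 8 libraries. The product of MET28 (YIR017C, minus strand, chrIX:383556-384119) is a bZIP protein that joins Cbf1 and Met4 on DNA. Its height was 44.3 and 51.1 in synHPRT1R YAC and 57.1 and 20.3 in synHPRT1 YAC libraries, against 13.6 and 10.9 in synHPRT1R integrated and 17.9 and 16.8 in synHPRT1 integrated libraries. The groups did not overlap, the nearest values being 20.3 in synHPRT1 YAC replicate 2 and 17.9 in synHPRT1 integrated replicate 1. The YAC mean was 43.2 ± 16.2 and the integrated mean 14.8 ± 3.17 (SD, n = 4 each), and the log2 ratio was 1.47 ± 0.37 (SE; exact permutation p = 0.0286, adjusted p = 0.262). The summit lay up to 115 bp downstream of the annotated 5′ end.

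MET30, the F-box subunit gene, had heights of 8.62 and 5.98 in synHPRT1R YAC and 14.2 and 3.06 in synHPRT1 YAC libraries, against 3.95 in synHPRT1R integrated replicate 2 and 3.06 in synHPRT1 integrated replicate 1. The listed heights overlapped. MET31, one of the zinc finger genes, had 2.91 and 6.17 in synHPRT1R YAC and 1.84 and 3.8 in synHPRT1 YAC libraries, against 7.41 and 9.05 in synHPRT1R integrated libraries and 6.82 in synHPRT1 integrated replicate 1. Its listed values were thus lower in YAC libraries, while its peak was missing from 1 integrated library. MET4, the activator gene, was listed in 3 YAC and 2 integrated libraries, with heights of 3.49 to 7.90 and of 1.93 and 2.75. With the summit required inside the window the order of MET4 presence turned, from 25 to -25 percentage points of YAC minus integrated libraries. CBF1 had one in 2 libraries of each context, with heights of 7.10 and 2.86 in YAC and 7.77 and 10.6 in integrated libraries, and MET32 in none.

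**Figure D4:**
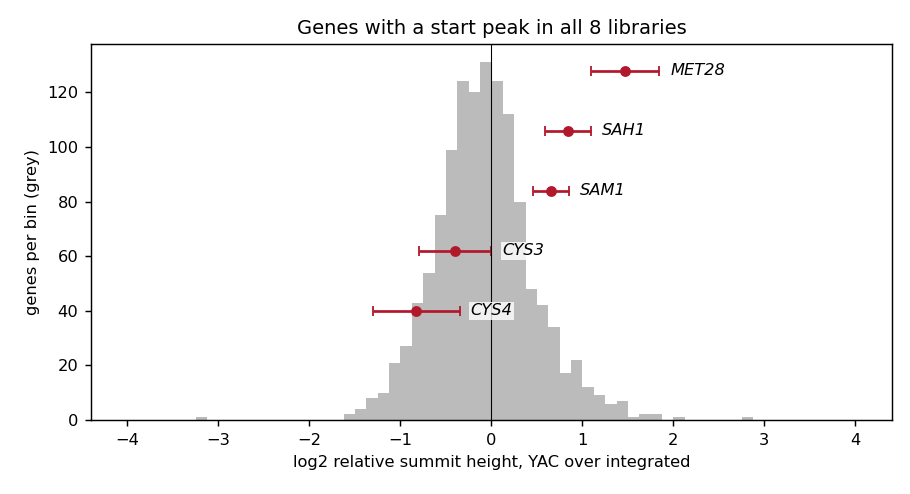
Log2 ratio of relative summit height, YAC over integrated, for the 1239 genes with a start peak in all 8 libraries (grey histogram, genes per bin) and for the 5 members among them (red points at arbitrary heights, with SE bars from 4 against 4 libraries). MET28 at 1.47, SAH1 at 0.84 and SAM1 at 0.65 lie right of 0, CYS3 and CYS4 left of it, and the 5th to 95th percentile of all these genes runs from -0.91 to 0.88.

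Of the uptake genes, MUP1 and MUP3 were each listed in 7 of 8 libraries and MMP1 in 2. MUP1, the high-affinity methionine permease gene, had heights of 13.6 and 8.88 in synHPRT1R YAC and 25.9 and 11.4 in synHPRT1 YAC libraries, against 4.98 and 8.67 in synHPRT1R integrated libraries and 11.7 in synHPRT1 integrated replicate 2. The ranges overlapped at 8.88 to 11.7. MUP3, a low-affinity permease gene, had heights of 10.4 and 6.27 in synHPRT1R YAC and 7.50 and 6.35 in synHPRT1 YAC libraries, against 10.2 in synHPRT1R integrated replicate 2 and 9.39 and 7.70 in synHPRT1 integrated libraries, and these overlapped. MMP1, the S-methylmethionine permease gene, was listed in 0 YAC and 2 integrated libraries, at 3.31 and 2.80.

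Sulfate uptake and activation were at the other end of the range. The sulfate permease genes SUL1 and SUL2, the ATP sulfurylase gene MET3 and MET22, which encodes the phosphatase that clears the by-product of sulfate reduction, had no start peak in any library. Peaks on their own strand inside the gene were listed in 1 library each for SUL1, MET3 and MET22 and in 5 for SUL2. MET14, the gene of the kinase that follows MET3, had heights of 3.30 and 2.76 in 1 library of each sequence on the YAC and of 8.67 in synHPRT1R integrated replicate 1. MET16, the gene of the reductase that makes sulfite, had a start peak of height 1.62 in synHPRT1R integrated replicate 2 alone, with its summit 148 bp into the gene, and peaks inside the gene on its own strand in 5 libraries and on the other strand in 5.

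The genes of sulfite reductase and its siroheme cofactor had heights of at most 11.3. MET5, the beta subunit gene, had heights of 7.12 and 3.28 in synHPRT1R YAC and 3.10 and 1.96 in synHPRT1 YAC libraries, against 2.81 and 4.43 in synHPRT1R integrated and no peak in synHPRT1 integrated libraries. Its listed values overlapped between contexts. MET10, the alpha subunit gene, was listed in 1 YAC and 2 integrated libraries, at 10.0 and at 5.13 and 2.61. Of the siroheme genes, MET8 had heights of 11.3 and 4.45 in 2 YAC libraries and of 3.44 to 6.40 in 3 integrated ones, and MET1 had 2.22 and 2.26 in 1 library of each context.

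Upstream sequences are shown for the 4 genes whose heights did not overlap, for CYS3 as a strong start that did overlap, and for MET3 and MET16 as weak or unlisted starts of the same pathway. Each is the 300 bases before the annotated 5′ end, 5′ to 3′ on the gene's strand, from the RefSeq reference of the same build, sacCer3. Capitals mark motifs searched on both strands, which do not overlap in these sequences. They are CACGTG, the core bound by Cbf1, and AAACTGTGG, the core bound by Met31 and Met32. Also in capitals is the core promoter element TATAAA.
MET6, chrV:342168-342467, minus strand: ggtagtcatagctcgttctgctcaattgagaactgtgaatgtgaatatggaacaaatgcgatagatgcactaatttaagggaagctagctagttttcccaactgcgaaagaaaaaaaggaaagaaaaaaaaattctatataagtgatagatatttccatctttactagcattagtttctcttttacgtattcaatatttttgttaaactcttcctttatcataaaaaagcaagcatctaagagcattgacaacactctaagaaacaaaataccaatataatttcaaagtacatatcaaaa
MET28, chrIX:384120-384419, minus strand: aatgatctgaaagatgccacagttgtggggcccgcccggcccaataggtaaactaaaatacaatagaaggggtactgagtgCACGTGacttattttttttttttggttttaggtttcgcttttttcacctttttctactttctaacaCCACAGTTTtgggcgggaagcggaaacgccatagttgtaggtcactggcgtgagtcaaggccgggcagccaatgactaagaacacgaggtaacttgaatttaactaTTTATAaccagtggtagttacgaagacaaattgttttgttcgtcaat
SAH1, chrV:237120-237419, minus strand: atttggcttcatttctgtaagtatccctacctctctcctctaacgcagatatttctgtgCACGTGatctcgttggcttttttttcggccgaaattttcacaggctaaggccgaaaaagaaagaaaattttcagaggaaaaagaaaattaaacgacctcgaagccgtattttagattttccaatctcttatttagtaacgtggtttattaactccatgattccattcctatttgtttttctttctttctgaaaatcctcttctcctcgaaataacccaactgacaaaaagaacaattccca
SAM1, chrXII:514962-515261, plus strand: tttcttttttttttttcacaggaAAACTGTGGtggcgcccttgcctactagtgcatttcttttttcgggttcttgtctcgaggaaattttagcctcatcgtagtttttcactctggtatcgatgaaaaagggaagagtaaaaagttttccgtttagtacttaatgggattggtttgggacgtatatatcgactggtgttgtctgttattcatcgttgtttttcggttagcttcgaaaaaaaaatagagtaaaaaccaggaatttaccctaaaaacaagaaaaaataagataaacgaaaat
CYS3, chrI:130499-130798, plus strand: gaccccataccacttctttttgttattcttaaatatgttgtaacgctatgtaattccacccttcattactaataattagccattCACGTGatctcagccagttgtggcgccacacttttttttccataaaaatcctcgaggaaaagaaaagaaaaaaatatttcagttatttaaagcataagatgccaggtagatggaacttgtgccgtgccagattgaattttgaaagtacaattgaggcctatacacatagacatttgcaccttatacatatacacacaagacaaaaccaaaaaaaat
MET3, chrX:455939-456238, plus strand: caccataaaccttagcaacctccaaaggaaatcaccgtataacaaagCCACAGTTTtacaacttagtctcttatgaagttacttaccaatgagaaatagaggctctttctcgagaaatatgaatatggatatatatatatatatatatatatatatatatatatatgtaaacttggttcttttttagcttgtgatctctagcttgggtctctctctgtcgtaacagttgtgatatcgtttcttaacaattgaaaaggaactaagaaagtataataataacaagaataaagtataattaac
MET16, chrXVI:877633-877932, minus strand: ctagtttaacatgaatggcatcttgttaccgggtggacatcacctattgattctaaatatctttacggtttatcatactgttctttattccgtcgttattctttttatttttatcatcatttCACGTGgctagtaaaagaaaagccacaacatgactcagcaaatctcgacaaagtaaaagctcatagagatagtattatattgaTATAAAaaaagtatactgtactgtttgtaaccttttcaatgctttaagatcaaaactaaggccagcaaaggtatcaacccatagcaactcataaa

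The MET6 sequence held none of the 3 motifs in these exact letters, whereas MET28 held all of them. In MET28, TATAAA and AAACTGTGG lay on the strand opposite the gene. Variants of the motifs were not searched, so an unmarked sequence may still hold one. CACGTG occurred in the 300 bases upstream of 11 of 31 members, 35.5%, and of 3.57% of the 6001 genes with a full window. AAACTGTGG occurred upstream of 9 members, 29.0%, and of 0.533% of genes, and both together at MET28 and MET30 and at 4 genes in all. TATAAA was found upstream of 11 members, 35.5%, and of 48.2% of genes. MHT1 and MMP1, head to head with 342 bp between them, share the same AAACTGTGG at chrXII:17784-17792. Of the 11 members with CACGTG, 3 were listed in all 8 libraries and 1 in none, and of the 20 without it 2 and 6. Of the 9 with AAACTGTGG the numbers were 3 and 2, and of the 22 without it 2 and 5. These are matches of letters, not measured binding.

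Summits of the members' start peaks lay slightly nearer the annotated 5′ end than those of all genes, a difference that was not tested. Over all libraries, the 124 start peaks of members, which are repeat listings of 24 genes, had a median summit 51 bp downstream of the annotated 5′ end (quartiles 25 and 67.5 bp), and the 19698 start peaks of all genes one of 61 bp (quartiles 32 and 81 bp). The upstream edge of the peak stood at a median of -68 bp for members and -53 bp for all genes, with median widths of 217 and 215 bp and a minimum of 200 bp. Since peaks are this wide, positions of single start sites cannot be read from them. No start peak of a member was shared with the window of another gene on the strand, and only MET3, with 3.77%, and STR3, with 3.23%, had 31-base words in the window that occur elsewhere in the nuclear genome.

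**Figure D5:**
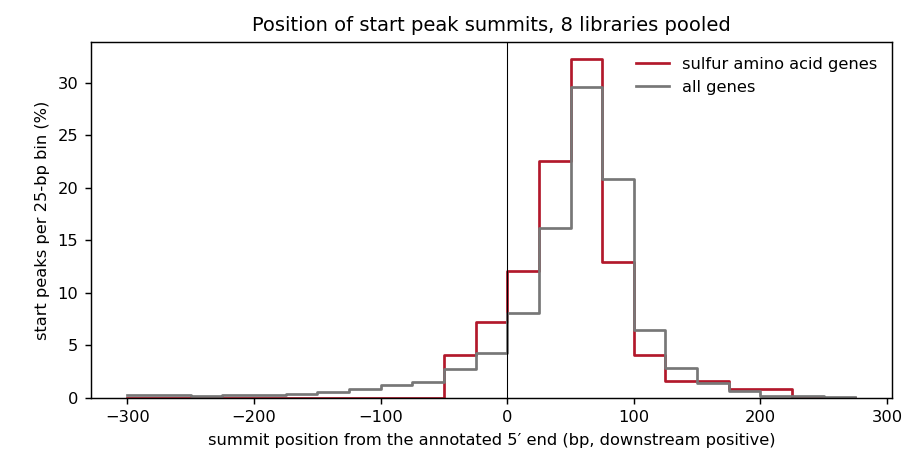
Position of start peak summits from the annotated 5′ end (bp, horizontal axis, downstream positive) as the share of start peaks per 25-bp bin (%, vertical axis), for the sulfur amino acid genes (red, 124 peaks) and all genes (grey, 19698 peaks) over the 8 libraries. Both distributions peak between 50 and 75 bp downstream.

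Other genes of sulfur amino acid metabolism, 24 in number, formed the surroundings of the pathway. Of these 24, 6 were listed in all 8 libraries and 6 in none, beside 20.6% and 33.8% of all genes. Of the 18 with any start peak, 5 had one in more YAC than integrated libraries and 4 in fewer, beside 24.7% and 29.8% of genes tested, and 0 passed Fisher's exact test after adjustment. HOM2, the aspartate semialdehyde dehydrogenase gene of the path to homoserine, did not overlap between contexts, with heights of 44.2 to 71.5 in YAC and 18.6 to 37.4 in integrated libraries. It had a log2 ratio of 1.20 (exact permutation p = 0.0286, the smallest possible; adjusted p = 0.262; n = 4 each). Of all genes with a start peak in all 8 libraries, 4.52% likewise did not overlap and were higher in YAC. On the deposited fold the groups of HOM2 overlapped, with 19.8 to 33.6 in YAC and 9.89 to 27.0 in integrated libraries. At HOM3, the aspartate kinase gene, 1 YAC and 3 integrated libraries listed a start, and HOM6 in 1 and 0. SAM3, the S-adenosylmethionine permease gene that neighbours SAM4, had one in 3 YAC and 1 integrated library.

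Among the salvage, glutathione and thioredoxin genes, the 5 listed in all 8 libraries overlapped between contexts. MEU1, which starts salvage of the methylthio group, ran from 15.6 to 24.4 in YAC and from 12.5 to 30.7 in integrated libraries, and UTR4, a later salvage enzyme gene, from 19.0 to 27.8 and from 23.4 to 30.5. TRR1, the thioredoxin reductase gene, had heights of 62.0 to 118 in YAC and 92.0 to 127 in integrated libraries, and TRX2, a thioredoxin gene, 33.8 to 78.9 and 64.8 to 98.7. GSH1 of glutathione synthesis was listed in every one of the 8 libraries, with 2.70 to 12.3 and 5.62 to 11.5. MET7, MXR1, SPE2, TRX1, JLP1 and BDS1 had none in any library.

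The comparison of synHPRT1R with synHPRT1 libraries, which mixes both media in each group, was made by presence alone and separated no member. Heights were not tested between the sequences. The count of members per library averaged 16.2 ± 1.89 in synHPRT1R and 14.8 ± 2.87 in synHPRT1 libraries (SD, n = 4 each). Of 24 members, 0 had a start peak in 4 of 4 synHPRT1R and 0 of 4 synHPRT1 libraries, as 0.176% of genes did, and 0 the reverse, as 0.101% did. SAM4 had one in 3 synHPRT1R and 0 synHPRT1 libraries and MET13 in 1 and 3, patterns of at least 3 against at most 1 that 3.73% and, in the opposite direction, 2.24% of genes showed. By Fisher's exact test 0 genes passed after adjustment and 11 (0.277%) had an unadjusted p under 0.05, none of them a member, and the lowest p of a member was 0.143, for SAM4, with an adjusted p of 1.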

How the data were processed

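Per the labels' protocols, each CAGE library started with 5 µg RNA and had 20 PCR cycles. The submitters' processing notes name the build sacCer3 and the tools MACS2 2.1.0, deepTools 3.5.0, Bowtie2 2.2.9, SAMtools 1.9 and bcl2fastq 2.20, without the settings of any. The authors deposited 32 peak lists, for each library, strand and 1 of 2 references; those with the synthetic sequence as a contig of its own were used here. For each peak the deposited columns give a fold, that is a ratio over background, and the −log10 of a p and a q value. These values are the authors' own and served to describe, rank or filter peaks within a list.

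Summit tags and background were solved from fold and p under a Poisson model, and 97.7% to 99.5% of a list's peaks gave a tag number whole within 0.1. Read totals are not used here, so depth is unknown as a count, and no molecular identifiers are mentioned. Forward lists were taken as the plus strand. Peak ends lay within the chromosome lengths of the RefSeq reference used for genes and sequences. Presence was tested over all genes with Fisher's exact test and heights with exact permutation over 70 arrangements of 8 libraries, both two-sided with Benjamini-Hochberg adjustment at 0.05 (Python 3.11.15, scipy 1.17.1). The test of heights, and the counts of heights that do not overlap, were added after the files were seen. The functions were tested on simulated data. Members and lists were chosen with earlier results of these data known. All members are accounted for; heights, in place of the fold, are given in every library for members present in at least 3 libraries of 1 context and at most 1 of the other, for those missing from 1 or 2 libraries of 1 context only, and for the member of each step with the highest median fold. HOM2 and other genes outside this rule that are named for their values were chosen after these were seen. Alternatives changed the q threshold, list length, window, overlap, reference and libraries.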

Additional observations from a re-analysis of the deposited data

Results flagged for a closer look

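Among integrated libraries, synHPRT1 integrated replicate 1 listed a start peak for 11 members where the other 3 listed 15 each, a gap as wide as the whole range of the group. It was the 1 set singled out by Dixon's test among 19 sets of 4 libraries. With the other 3 counts equal, any differing count gives a ratio of gap to range of 1. The test therefore cannot weigh the size of this gap, and its usual chance rate of about 1 in 20 does not hold for such ties. The members listed in all 4 YAC and some integrated libraries numbered 6 without it and 7 with it, beside 6.03% and 6.77% of all genes tested. The members in more YAC than integrated libraries were 12 in both cases, beside 30.4% of genes without it and 24.7% with it. HIS3 had a relative summit height of 239.7 in the same library, against 11.1 in the other integrated library that listed it.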

How the results depend on the processing

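Across the q threshold, equal list lengths, the summit rule, the overlap, both windows, the other reference and assignment to the nearest gene, the YAC minus integrated difference in members per library stayed between 2.5 and 4, against 3 as reported. It was 2 to 3.67 with a library left out, the lowest without synHPRT1 integrated replicate 1. MET6, SAM1 and SAH1 did not overlap under any of these changes of threshold, list length, summit rule, overlap, window, reference or assignment. The same held for MET28 except under the summit rule. There its summits 107 to 115 bp downstream, found in both contexts, lay past the 100 bp limit. MET28 was then not listed in all 4 YAC libraries and no longer met the rule. On the deposited fold, an alternative added after seeing the data, SAM1 overlapped (log2 ratios 0.17 for SAM1 and 0.27 for SAH1, the second compressed by the ceiling of the fold). With heights scaled to equal medians the log2 ratios of MET28, SAH1 and SAM1 were 1.55, 0.93 and 0.74. MET4 presence turned to -25 points with the summit inside the window; no other member's presence turned. Genes in integrated libraries alone numbered 9 at a −log10 q of at least 10 and 8 by the summit rule, against 5. At least 3 against at most 1 library gave 135 genes for YAC, 151 for integrated, 148 for synHPRT1R and 89 for synHPRT1, where all 4 against 0 libraries gave 6, 5, 7 and 4. With a library left out these last counts were 9 to 18, 8 to 19, 7 to 28 and 6 to 11, since fewer libraries must agree. Replicate numbers did not pair the libraries (correlations of deviations -0.06 to 0.004 over 6 pairs). With the replicate block, 0 genes passed in either comparison. The smallest permutation p over its 36 arrangements was 0.0556, above 0.05 before any adjustment, so no gene could pass. The cause of each change was not tested. Weak members lie near the detection limit of 1.32 to 1.49 times background, so a missing peak does not show an inactive start.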
